A study of Mus musculus with 40 samples.

Results

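Expression of 10 genes of Notch signalling was followed in a mouse model of lung squamous premalignancy. They were taken by name from the table of 37310 genes: the receptors Notch1, Notch2 and Notch3, the ligands Jag1, Jag2 and Dll1, the glycosyltransferase Lfng, and the target genes Hes1, Hey1 and Nrarp. In NCBIM37 coordinates Dll1 lies at chr17:15504318-15513836, Notch1 at chr2:26313423-26372183, Notch3 at chr17:32257765-32303825, Hes1 at chr16:30064470-30067882 and Hey1 at chr3:8663362-8667039. All 10 were among the 15630 genes that passed the study's filter on low and invariant expression. RNA came from fresh frozen whole lung sections, or from tissue cut out by laser capture microdissection (LCM), of female SWR/J and A/J mice. NTCU, a carcinogen painted on the skin, gave lesions from mild dysplasia to squamous cell carcinoma, and the normal samples came from mice that received no NTCU (0 umol), with acetone vehicle named in the labels. Of 40 libraries, the 25 labelled as passing quality control were compared: 7 normal (4 SWR/J and 3 A/J), 5 mild dysplasia (all SWR/J at 15 umol NTCU) and 13 high-grade. The high-grade group held 9 samples of moderate to severe dysplasia, 2 of severe dysplasia, 1 carcinoma in situ and 1 SCC tumor. Its 8 SWR/J samples had received 25, 30 or 50 umol and its 5 A/J samples 14 or 20 umol, so dose, strain and grade cannot be fully told apart. The mice entered the study as young adults, the labels give no age for each sample, and the animal each sample came from could not be identified. In normal replicate 7 and mild dysplasia replicate 5 the written description names another histology than the grade label, which was used here. P-values therefore measure the spread between samples, some of which may share an animal.

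Notch receptors are membrane proteins that are cleaved when a ligand on a neighbouring cell binds them, and the freed intracellular part then joins the DNA-binding protein Rbpj in the nucleus and switches on target genes. In the airway the pathway is known for guiding progenitors towards the secretory rather than the ciliated fate, and in stratified squamous epithelium it is known for its part in the step from basal to differentiated cells. Hes1 and Hey1 encode transcriptional repressors, Nrarp encodes an ankyrin repeat protein that dampens the pathway, and Lfng adds sugars to the receptors and so changes which ligand they answer to.

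The 13 LCM and 12 whole lung libraries held between 2667387 and 16534728 expected counts. Expression is given as log2 CPM, the log2 of counts scaled to the size of the library, with library sizes scaled by the trimmed mean of M-values (TMM). Differences are log2 fold changes with their standard error (SE), from an edgeR quasi-likelihood fit to all genes with median transcript integrity number (TIN, a measure of RNA quality), strain and sample type as covariates. A gene was called at a Benjamini-Hochberg adjusted p under 0.05 over all 15630 genes. Secretory airway markers were found in all 25 libraries, with sums from 1024 CPM in normal replicate 5 to 206146 CPM in normal replicate 2. T cell and thymocyte markers exceeded 2000 CPM in sum in 5 libraries, normal replicates 1, 3 and 6 and high-grade replicates 1 and 8. High-grade replicates 3, 4, 10 and 11 and normal replicate 4, a whole lung library, had squamous marker sums between 12244 and 51846 CPM. In bulk tissue, fewer cells of a type and less RNA per cell cannot be told apart.

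Transcript levels of the members differed widely. Levels between genes were compared as log2 CPM per kilobase of exon over all 25 samples. Hes1 stood highest (median 4.97, range 2.61 to 6.20) and exceeded the next gene, Nrarp (median 3.51), in 23 of 25 samples. Hey1 (3.39), Lfng (3.22), Jag1 (2.67) and Jag2 (2.16) followed, then Notch2 (1.95), Notch1 (1.91), Notch3 (1.62) and Dll1 (1.36). Below Hes1, neighbours in this order differed on average by less than the SD of their difference in the same samples, so their order varied between samples. Jag1 exceeded Jag2 in 20 of 25 samples, and Nrarp exceeded Hey1 in 8 of 25. The mean differences between neighbours were not tested. The order depends in part on the exon length used as divisor. This was 2037 to 2573 bases for Hes1, Nrarp, Hey1 and Lfng and 8044 to 14232 for the receptors. Dll1, the lowest gene, had 4219. By median log2 CPM Hes1 was again highest. There Notch1 (5.74), Notch2 (5.34) and Jag1 (5.21) lay above Nrarp (4.87), Hey1 (4.53) and Lfng (4.41). Whether reads cover long and short transcripts equally in these libraries was not tested. Dll1 had 8 to 268 expected counts per library.

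The promoters of Lfng and Nrarp are shown because these genes carry the changes with RNA quality described further on. The 250 bases before the annotated start are from RefSeq (GRCm38.p6 table). Each window was found at 1 place on the plus strand of the gene's own chromosome in NCBIM37, the build of the files. These are chr5:141083045-141083294 for Lfng and chr2:25036028-25036277 for Nrarp. Other chromosomes were not searched. Capitals mark TGGGAA, the core of the Rbpj binding site, or TTCCCA, its reverse complement.

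Lfng: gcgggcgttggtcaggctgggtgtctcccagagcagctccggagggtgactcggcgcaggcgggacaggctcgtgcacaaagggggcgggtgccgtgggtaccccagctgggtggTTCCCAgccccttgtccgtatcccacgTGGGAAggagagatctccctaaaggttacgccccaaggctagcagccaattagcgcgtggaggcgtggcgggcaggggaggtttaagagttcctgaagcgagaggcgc

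Nrarp: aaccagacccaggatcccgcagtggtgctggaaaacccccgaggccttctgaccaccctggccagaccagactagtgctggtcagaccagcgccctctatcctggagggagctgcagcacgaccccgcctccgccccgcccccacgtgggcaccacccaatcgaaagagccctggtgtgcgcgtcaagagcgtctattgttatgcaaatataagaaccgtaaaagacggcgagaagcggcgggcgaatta

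The Lfng window held the motif 2 times, starting 135 and 108 bases before the start. The motif, on either strand, was in 21.6% of 32851 promoter windows of this length. Of the 8 members with an entry, the windows of Notch1, Notch2, Notch3, Jag1, Jag2, Dll1 and Nrarp did not hold these letters. Hes1 and Hey1 have no entry.

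In mild dysplasia, Dll1 was higher than in normal samples and was the 1 member that passed the threshold, while the other ligand genes, Jag1 and Jag2, did not pass. Dll1 encodes a Delta-type ligand, and its log2 CPM in the mild samples 1 to 5 was 3.65, 4.22, 3.68, 3.60 and 4.18. In normal samples it ran from 1.54 to 3.44 with a median of 2.69. All mild samples were above all normal samples, and the share of all genes that did so is not reported here. The fitted log2 fold change was 1.60 (SE 0.415, edgeR adjusted p = 0.0240, n = 5 and 7). The 3 A/J normal samples lay at 3.29, 3.35 and 3.44, close under the mild samples, and the 4 SWR/J normal samples at 1.99, 1.54, 1.88 and 2.69 were well below them.

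Jag2, a Serrate-type ligand, was at 4.68, 4.18, 4.68, 4.36 and 4.5 in the mild samples and from 2.21 to 5.15 (median 3.47) in normal samples. The groups overlapped because of A/J normal samples. Against the 4 SWR/J normal samples alone (2.21 to 3.47), Jag2 and Dll1 were the 2 of 10 members whose mild values lay wholly above; of all genes tested, 5.13% did so. The adjusted p of Jag2 missed the threshold (log2 fold change 1.38, SE 0.472, edgeR adjusted p = 0.0553). Jag1, the other Serrate-type ligand, measured 5.44, 6.07, 5.05, 5.70 and 5.51 in mild samples against 3.52 to 6.19 (median 4.44) in normal ones, with a log2 fold change of 1.15 (SE 0.427, edgeR adjusted p = 0.0727). Its highest normal values belonged to replicates 2 (6.19) and 4 (6.08), which overlapped the mild samples.

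Across the members, 1 of 10 was called higher and 0 lower, while 12.6% of all genes were called in either direction, 5.22% higher and 7.36% lower. The median member log2 fold change was 0.84 and that of all genes -0.03, and 9 of 10 members were positive. The receptors differed by less than their intervals: Notch1 by 0.16 (95% interval -0.53 to 0.85), Notch2 by 0.47 and Notch3 by 0.43. Of the target genes, Hes1 differed by 0.95 (SE 0.455, edgeR adjusted p = 0.151), Hey1 by 1.04 and Nrarp by 0.74. Lfng, at -0.27 (SE 0.416, edgeR adjusted p = 0.675), was the negative member.

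**Figure D1:**
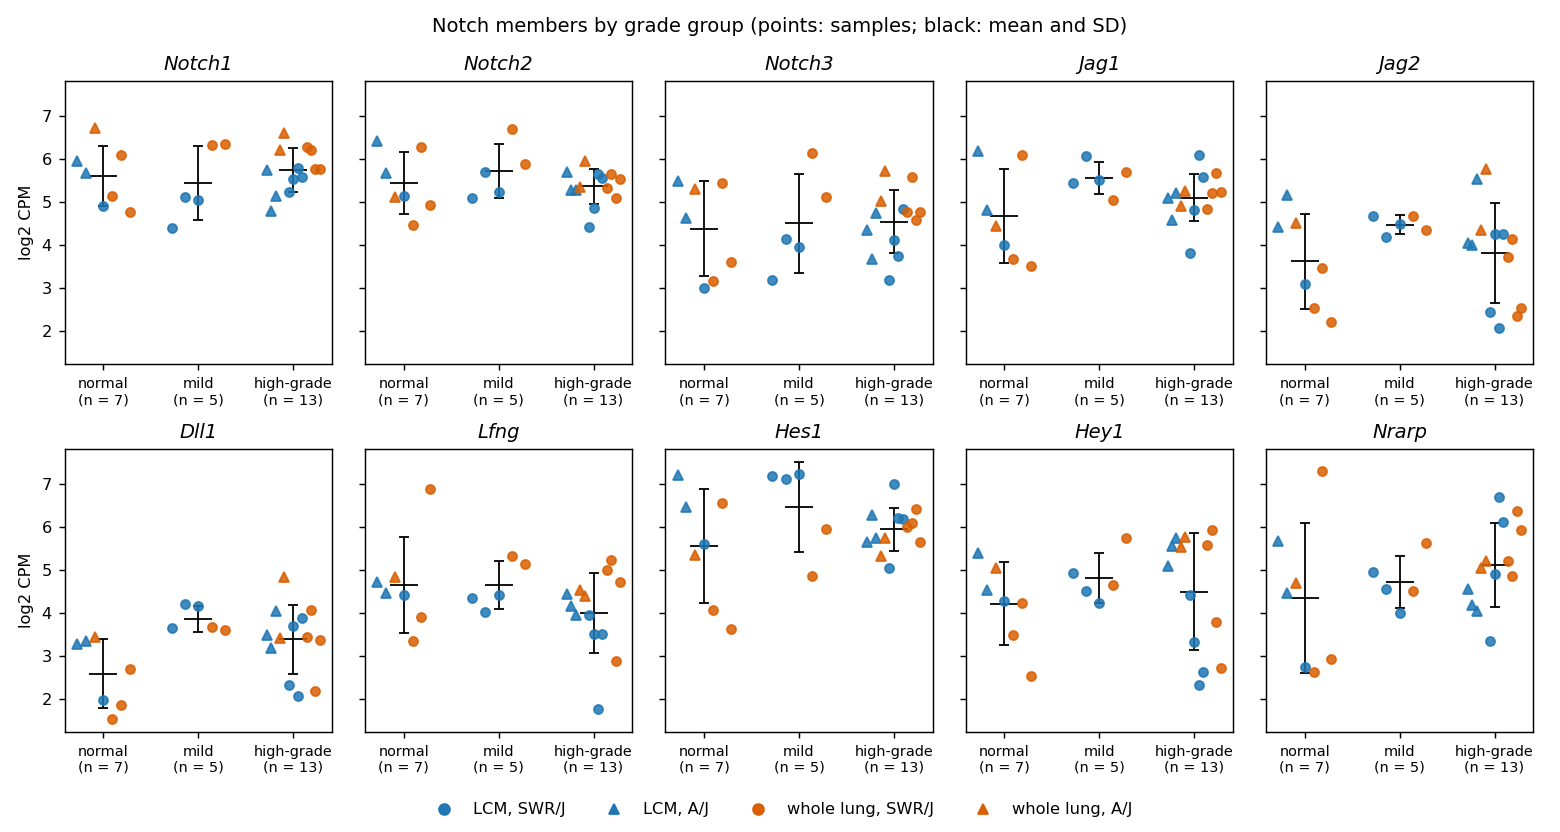
Log2 CPM (y axis) of each Notch member in the 7 normal, 5 mild dysplasia and 13 high-grade samples (x axis); points are samples, coloured by sample type and shaped by strain, and black bars are the mean and SD. The 5 mild values of Dll1 lie between 3.60 and 4.22, above all normal values, and the values of the other members overlap between mild and normal samples.

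The mild samples also differed from the normal ones in other cell type markers. Of the T cell and thymocyte list, 11 of 12 tested genes were lower in mild samples (median log2 fold change -6.38), and the summed level of all 13 listed genes ran from 194 to 7894 CPM in normal samples, from 30.7 to 224 in mild and from 12.9 to 5029 in high-grade. Of the fibroblast list 3 of 6 genes were higher (median 1.45) and of the proliferation list 2 of 6 lower (median -2.55). All 19 tested ciliated genes were positive (median 1.65) and all 10 alveolar genes (median 1.73), with none called in either list. The part of these lists in the Dll1 result was not tested as a cause. Without the 5 libraries rich in these markers, the Dll1 log2 fold change was 1.21 (SE 0.476) and edgeR's adjusted p 0.232. With a T cell score as a further covariate it was 0.95 (SE 0.467, edgeR adjusted p = 0.322). Of the 2 SWR/J normal samples under the limit set for these libraries (2000 CPM), replicate 4 held 194 CPM of the markers. Its Dll1 of 1.88 rested on 8 expected counts. Replicate 5 held 1629 CPM and had a Dll1 of 2.69. The A/J normal samples under the limit, replicates 2 and 7, held 489 and 770 CPM and had a Dll1 of 3.29 and 3.35. Within LCM samples the Dll1 difference was 1.66 (edgeR adjusted p = 0.389) and within whole lung samples 0.67 (0.562 by the same test), and leaving out normal replicate 1 (edgeR adjusted p = 0.0586) or mild dysplasia replicate 2 (0.0572) also ended the call. Within SWR/J mice it was 1.73 (SE 0.491, edgeR adjusted p = 0.0394), and without the 2 samples whose description differs 1.58 (SE 0.453, edgeR adjusted p = 0.0466).

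In high-grade lesions, no member passed the threshold against normal samples. Dll1 came nearest. It ran from 2.09 to 4.84 (median 3.45) in the 13 high-grade samples, overlapping the normal range, and its log2 fold change was 1.07 (SE 0.330, unadjusted p = 0.00379, edgeR adjusted p = 0.335). The lowest high-grade values, 2.09, 2.18 and 2.34, were in SWR/J replicates 3, 10 and 1, and the highest, 4.84, was in the A/J carcinoma in situ. Both edgeR and DESeq2 called 0 of 10 members, and 1 had an unadjusted p under 0.05, against 1420 of all 15630 genes. Of all genes, 0.0192% (3 of 15630) were called in this comparison.

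No receptor passed the test between high-grade and normal samples. Notch1 ran from 4.79 to 6.60 (median 5.77) in high-grade and from 4.77 to 6.72 (median 5.67) in normal samples, with a log2 fold change of 0.19 (95% interval -0.31 to 0.68). Notch2 differed by -0.15 (95% interval -0.69 to 0.39) and Notch3 by 0.19 (95% interval -0.54 to 0.93). Jag1 (-0.08), Lfng (-0.22), Hes1 (-0.14) and Nrarp (-0.20) had smaller or similar differences that did not pass either, and Jag2 (0.51, SE 0.351) and Hey1 (0.66, SE 0.404) were positive with intervals that spanned 0.

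Hey1 varied widely within the high-grade group. In SWR/J replicates 3, 4, 11, 2 and 10 it measured 2.34, 2.63, 2.73, 3.32 and 3.78, and in the other 8 high-grade samples 4.42 to 5.92. Nrarp had its 4 highest high-grade values, 5.92 to 6.70, in replicates 3, 4, 10 and 11, all of them SWR/J samples with low TIN and high squamous markers. Among normal samples Nrarp was highest, at 7.30, in replicate 4, which shares both features.

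Between high-grade and mild samples 0 of 10 members were called by edgeR, 2 had an unadjusted p under 0.05 (Jag1 and Hes1) and DESeq2 called 1, Jag1; edgeR called 0.339% of all genes. Jag1 ran from 3.83 to 6.09 (median 5.21) in high-grade samples, with a log2 fold change against mild of -1.23 (SE 0.420, edgeR adjusted p = 0.102). Hes1 ran from 5.05 to 6.99 (median 6.0) in high-grade samples and differed from mild by -1.08 (SE 0.429, edgeR adjusted p = 0.142). These contrasts share the high-grade or mild samples with those above and are not independent of them.

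**Figure D2:**
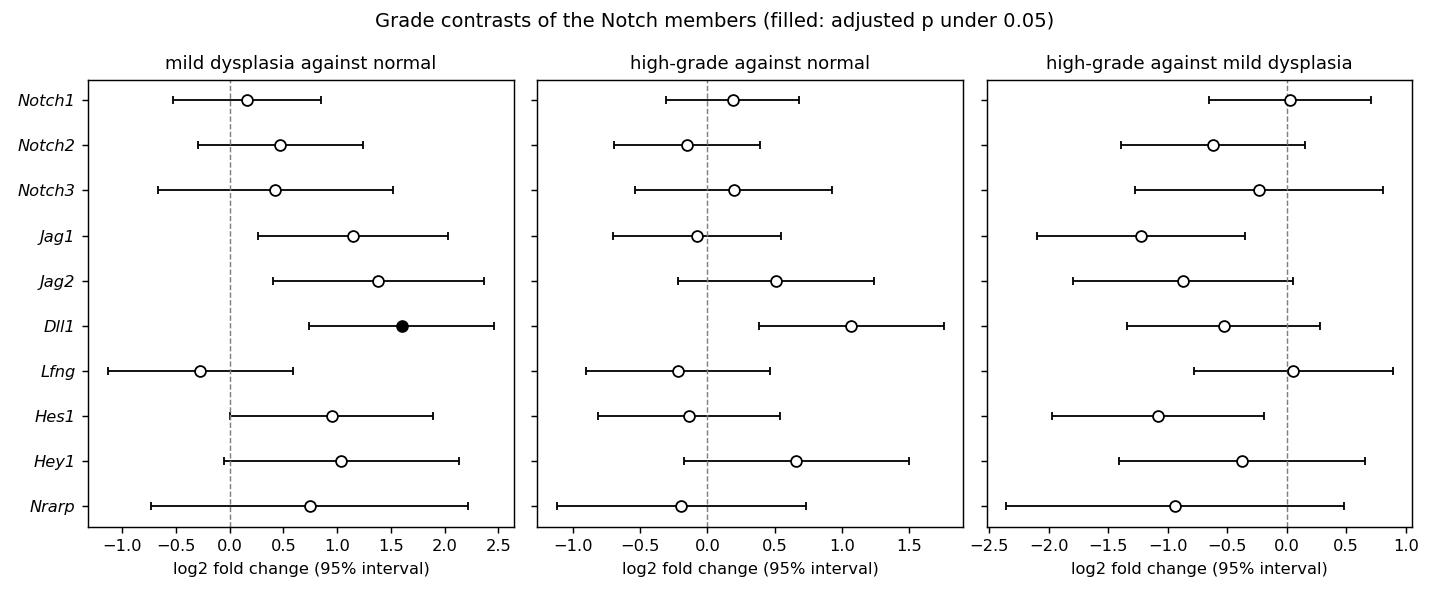
Log2 fold changes (x axis) of the 10 Notch members with 95% intervals for mild dysplasia against normal, high-grade against normal and high-grade against mild dysplasia; filled points passed the adjusted threshold. Dll1 against normal is 1.60 in mild dysplasia, where it is filled, and 1.07 in high-grade, where it is not.

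With grade as a rank from normal to carcinoma, the result for the members was as in the group comparison: edgeR and DESeq2 called 0 of 10, 1 had an unadjusted p under 0.05 (Dll1), and edgeR called 0.384% of all genes. Dll1 differed by 0.36 per step of rank (SE 0.132, edgeR adjusted p = 0.245). In the single SCC tumor Dll1 measured 4.04, Jag2 5.54, Hey1 5.75 and Notch1 5.14, and in the single carcinoma in situ 4.84, 5.77, 5.77 and 6.60. These 2 A/J samples had the highest Jag2 values of all 25 libraries and 2 of the 3 highest Hey1 values. They have no replicates.

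Other genes of the pathway were counted from a list of 45, of which 39 passed the filter; Dll3, Dlk1, Hes2, Hes3, Hes5 and Hes7 did not. In mild dysplasia 2 of 39 were higher and 2 lower, where 5.22% of all genes were higher and 7.36% lower. Numbl, an adaptor related to the Notch inhibitor Numb, was higher by 1.54 (SE 0.475, edgeR adjusted p = 0.0399), and Mib1, a ubiquitin ligase that activates ligands in the cell that presents them, by 0.81 (SE 0.195, edgeR adjusted p = 0.0206). Hdac1, a histone deacetylase of corepressor complexes, was lower at -1.03 (SE 0.302, edgeR adjusted p = 0.0326), and Dtx3l, a Deltex family ubiquitin ligase, at -0.79 (SE 0.260, edgeR adjusted p = 0.0495). The median over the 39 was 0.20. For high-grade against normal, high-grade against mild and the rank of grade, 0 of 39 were called. Of all genes, 0.0192%, 0.339% and 0.384% were called in these comparisons.

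LCM samples held less Notch1, Notch3 and Lfng and more Hes1 than whole lung, 4 of 10 members called by edgeR and DESeq2 alike. Of all genes, edgeR called 14.6% (5.60% higher and 9.05% lower). Notch1 ran from 4.40 to 5.94 in LCM and from 4.77 to 6.72 in whole lung samples. The group means were 5.30 ± 0.453 (SD, n = 13) and 6.02 ± 0.574 (SD, n = 12), and the log2 fold change was -0.80 (SE 0.192, edgeR adjusted p = 0.00949). Notch3, a receptor known from vascular smooth muscle and pericytes as well as epithelium, was at 4.08 ± 0.731 and 4.94 ± 0.848, with a log2 fold change of -1.02 (SE 0.294, edgeR adjusted p = 0.0245). Both receptors overlapped between the sample types.

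Lfng was at 3.98 ± 0.755 (SD, n = 13) in LCM and 4.69 ± 1.03 (SD, n = 12) in whole lung samples, a log2 fold change of -0.84 (SE 0.274, edgeR adjusted p = 0.0421). Hes1 went the other way, with 6.38 ± 0.729 against 5.47 ± 0.892 and a log2 fold change of 0.84 (SE 0.277, edgeR adjusted p = 0.0442). Its 5 highest values, 6.99 to 7.23, were all in LCM samples: the 3 mild ones, high-grade replicate 2 and normal replicate 2. The lowest, 3.63 and 4.08, were in whole lung samples of normal mice. The other 6 members were not called, with log2 fold changes from -0.61 (Hey1) to 0.13 (Jag1).

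Without the libraries rich in T cell markers, the differences were -0.73 for Notch1, -0.95 for Notch3, -0.83 for Lfng and 0.92 for Hes1, and all 4 adjusted p-values then lay between 0.0584 and 0.0912. Without the 2 samples whose description differs, Notch1 was at -0.81 (edgeR adjusted p = 0.0263), while Notch3 (-0.99, 0.0593 by the same test), Lfng (-0.83, 0.0882) and Hes1 (0.77, 0.0985) missed the threshold. Notch3 also missed it without mild dysplasia replicate 3 (-0.84, edgeR adjusted p = 0.0629). The calls of Lfng and Hes1 stood close to the threshold, since leaving out any of 14 and 15 of the 25 libraries ended them. Within SWR/J mice Notch1 was at -0.73, Notch3 at -1.26, Lfng at -0.86 and Hes1 at 0.64, and none was called.

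**Figure D3:**
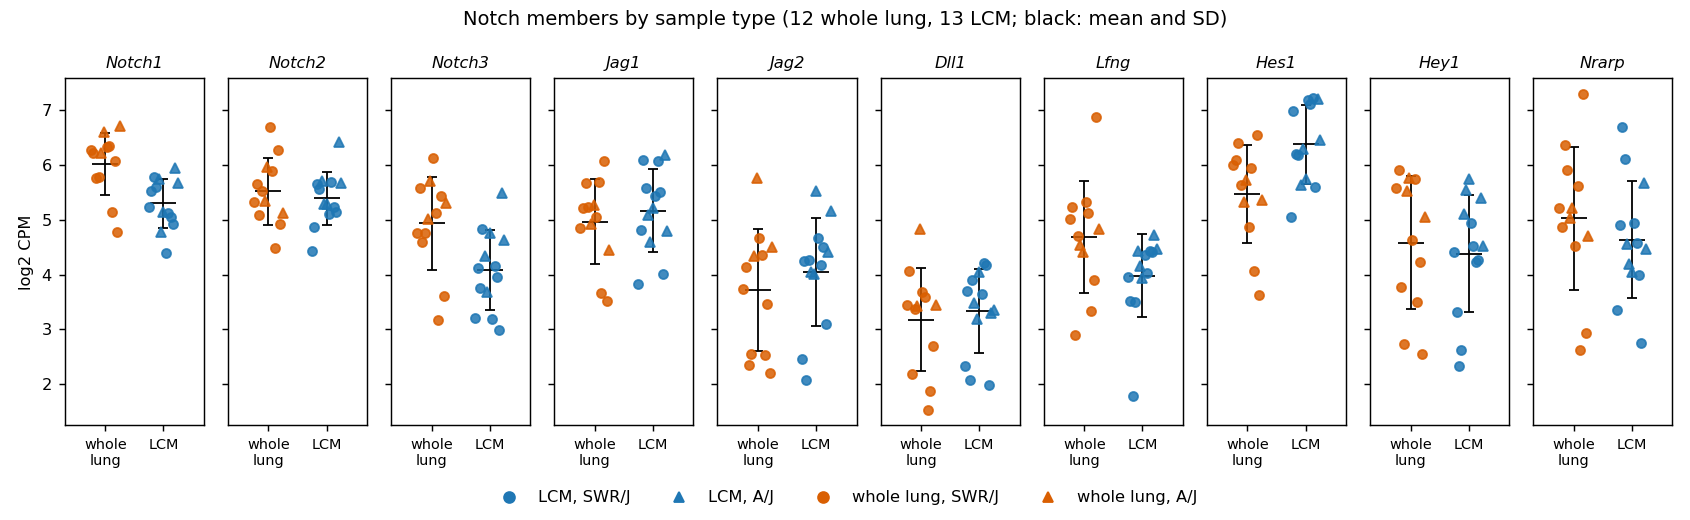
Log2 CPM (y axis) of each Notch member in 12 whole lung and 13 LCM samples (x axis), with triangles for A/J, circles for SWR/J and black bars for the mean and SD. Notch1, Notch3 and Lfng have lower means and Hes1 a higher mean in LCM samples, and the ranges overlap for each.

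The cell type lists moved with the sample type as well. Of the endothelial markers 11 of 12 were lower in LCM samples (median log2 fold change -1.55), and their summed level ran from 193 to 2111 CPM in LCM and from 243 to 2829 in whole lung samples. Of the alveolar markers 5 of 10 and of the B cell markers 5 of 6 were lower. Of the smooth muscle and pericyte markers 1 of 10 was called lower, while 8 of 10 were positive (median 0.21). The secretory list had 9 of 15 and the ciliated list 7 of 19 tested genes higher in LCM samples. The part of these cells in the differences of the members was not tested.

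The wider pathway leaned the same way as the receptors. Of the 39 genes tested, 10 were lower and 1 higher in LCM samples, where 9.05% of all genes were lower and 5.60% higher. The median was -0.18 against -0.03 over all genes. The largest were Notch4, the receptor best known from endothelium (-1.70, SE 0.355, edgeR adjusted p = 0.00481), and Dll4, the endothelial Delta-type ligand (-1.49, SE 0.318, edgeR adjusted p = 0.00558). Spen, a corepressor (-1.13), Furin, the protease of the first receptor cleavage (-1.04), and Heyl, a Hey family repressor (-0.97), came next. Psenen, a subunit of gamma-secretase, was the gene called higher, at 0.45 (SE 0.147, edgeR adjusted p = 0.0432).

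Between strains, 9 of 10 members were positive for A/J against SWR/J and none was called by edgeR, which called 1.02% of all genes. Jag1 and Jag2 had an unadjusted p under 0.05 and DESeq2 called 1, Jag2. Jag2 ran from 4.01 to 5.77 in the 8 A/J samples and from 2.09 to 4.68 in the 17 SWR/J samples, overlapping between 4.01 and 4.68. Its log2 fold change was 1.37 (SE 0.446, edgeR adjusted p = 0.127). Leaving median TIN out of the fit gave 1.60 (edgeR adjusted p = 0.00308), and Dll1 and Hey1 were then called too. The share of all genes called in that fit is not given here. The A/J samples had a TIN of 53.7 to 69.6, and the 5 libraries of lowest TIN were all SWR/J. None of the 39 other pathway genes was called. Cell type lists differed between strains too. Positive differences were found for 12 of 12 endothelial (median 1.71), 10 of 10 alveolar (1.98) and 19 of 19 ciliated genes (0.85). They were found for 3 of 6 fibroblast, 0 of 12 T cell and thymocyte (median -2.48) and 0 of 6 B cell genes (-2.45). None of these genes was called, and the part of these lists in the differences of the members was not tested.

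RNA quality itself moved with 2 members. Per 10 units of median TIN, Lfng was higher by 0.52 (SE 0.140, edgeR adjusted p = 0.0303) and Nrarp lower, at -0.70 (SE 0.190, edgeR adjusted p = 0.0330), where 6.99% of all genes were called, 3.37% higher and 3.62% lower. These shares are edgeR's. DESeq2 called 4 members, with Jag1 and Hes1 added, and also called more of all genes, as counted further on. The lowest Lfng value, 1.78, was in high-grade replicate 3, the library of lowest TIN (21.7), which also had a Nrarp of 6.70. The Lfng call was lost without high-grade replicates 3 or 10 or normal replicates 4 or 5, and that of Nrarp without any of these, normal replicate 1 or high-grade replicate 1. Without the libraries rich in T cell markers Lfng was at 0.52 (edgeR adjusted p = 0.102) and Nrarp at -0.50 (edgeR adjusted p = 0.204). Without the 2 samples whose description differs both were called (Lfng 0.53 and Nrarp -0.71, each with an edgeR adjusted p of 0.0434). Of the other pathway genes 1 of 39 was called, Maml1, a coactivator of the Notch complex, at 0.33 (SE 0.0773, edgeR adjusted p = 0.0172).

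TIN and squamous markers were entangled. The 5 libraries with a squamous score above 1 had a TIN of 21.7 to 39.1, and the other 20 libraries had 39.5 to 75.1. What follows for the squamous score therefore depends on the TIN covariate.

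Cell fate was expressed as 3 scores, each the mean z-scored log2 CPM of a list of markers, scaled to an SD of 1 over the 25 samples. The squamous list held 16 genes such as Krt13 and Sprr3, the secretory list 16 such as Scgb1a1 and Muc5b, and the ciliated list 20 such as Foxj1 and Hydin. The scores used the genes that passed the filter, which were 16, 15 and 19. No member is in a list. Each score in turn replaced the grade group in the edgeR fit, so the coefficient is the log2 change of a gene per SD of the score at equal TIN, strain and sample type.

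With the ciliated score, the repressor genes Hes1 and Hey1 were higher. The Hes1 coefficient was 0.60 (SE 0.129, edgeR adjusted p = 0.00323) and that of Hey1 0.62 (SE 0.183, edgeR adjusted p = 0.0293). These 2 of 10 members were called by edgeR and DESeq2, where edgeR called 11.6% of all genes, 7.73% higher and 3.91% lower. The 4 libraries with a ciliated score above 1 (mild dysplasia replicates 1, 2 and 5 and normal replicate 2) had the 4 highest Hes1 values, 7.12 to 7.23. All 4 were LCM libraries, where Hes1 was higher, and the grade group was not in this fit. Normal replicate 5, with the lowest ciliated score (-1.81), had the lowest Hes1, 3.63. Hey1 did not follow the score at its top, where the same 4 libraries measured 4.24 to 5.41, and high-grade replicate 13 had a Hey1 of 5.77 at a score of -1.36.

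The Hes1 coefficient was 0.59 within LCM samples and 0.59 within whole lung samples, with edgeR adjusted p = 0.0662 and 0.268, and it passed the threshold with each single library left out. That of Hey1 was 0.44 within LCM and 1.02 within whole lung samples, with edgeR adjusted p = 0.156 and 0.226. Its call was lost without normal replicate 5 (0.50, edgeR adjusted p = 0.109), mild dysplasia replicate 1, or high-grade replicates 4 or 11. Without the libraries rich in T cell markers both were called (Hes1 0.52, Hey1 0.80), as they were without the 2 samples whose description differs (0.63 and 0.64). Leaving out median TIN lowered the Hes1 coefficient to 0.43 (edgeR adjusted p = 0.0587).

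The ciliated score did not track ciliated markers alone. Of the alveolar list 7 of 10, of the endothelial list 8 of 12 and of the secretory list 6 of 15 genes were higher with it too, and whether these cells take part in the Hes1 and Hey1 values was not tested. Of the 39 other pathway genes 3 were higher and none lower, where 7.73% of all genes were higher and 3.91% lower. Notch4 was higher by 0.75 (SE 0.167, edgeR adjusted p = 0.00479). Hes6, a Hes family gene known for opposing Hes1, was higher by 0.37 (SE 0.117, edgeR adjusted p = 0.0450), and Mib2, a ligand ubiquitin ligase, by 0.31 (SE 0.101, edgeR adjusted p = 0.0488).

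With the squamous score, 8 of 10 coefficients were positive and none was called by edgeR or DESeq2, where edgeR called 6.99% of all genes. An unadjusted p under 0.05 was found for 3 members, Notch2, Notch3 and Nrarp. Notch3 had a coefficient of 0.42 (SE 0.155, edgeR adjusted p = 0.0989), Notch2 of 0.30 (SE 0.126, edgeR adjusted p = 0.147) and Nrarp of 0.47 (SE 0.220, edgeR adjusted p = 0.189). Hey1 (-0.41) and Lfng (-0.29) were the negative members, both with intervals that spanned 0. Without median TIN in the fit, Nrarp (0.70, edgeR adjusted p = 0.00418) and Lfng (-0.57, edgeR adjusted p = 0.00745) were called. The share of all genes called without TIN is not given here. The 5 libraries with a squamous score above 1 had Nrarp values of 5.92 to 7.30, the 5 highest of all. Cardiac and skeletal muscle markers also moved with the score (3 of 10 higher), and high-grade replicates 4, 10 and 11 held 8243 to 8751 CPM of them. High-grade replicates 4 and 10 also held 5342 and 2147 CPM of neuroendocrine markers, against 3.05 to 65.9 CPM in the other libraries. None of the neuroendocrine genes was called with the score.

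**Figure D4:**
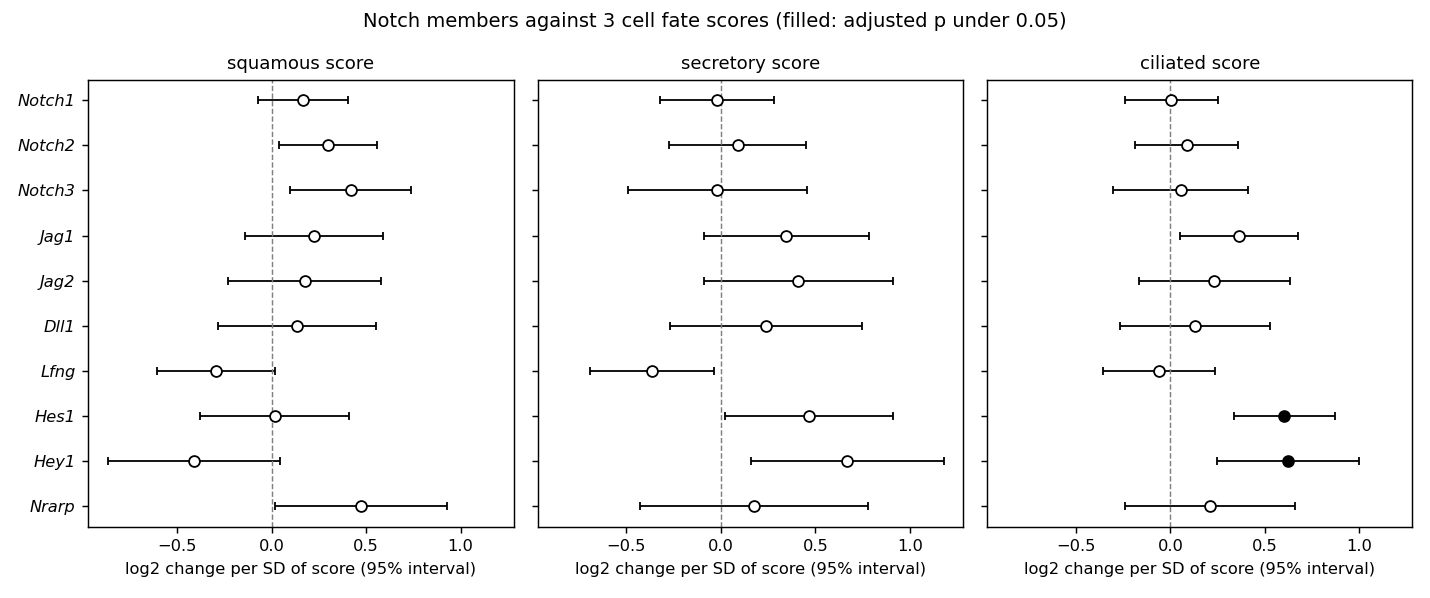
Log2 change per SD (x axis) of the squamous, secretory and ciliated scores for each Notch member, with 95% intervals; filled points passed the adjusted threshold. Hes1 (0.60) and Hey1 (0.62) are filled for the ciliated score, and no member is filled for the other scores.

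With the secretory score 0 of 10 members were called by edgeR, 3 had an unadjusted p under 0.05, DESeq2 called 1 (Hey1), and edgeR called 1.07% of all genes. Hey1 had the largest coefficient, 0.67 (SE 0.247, edgeR adjusted p = 0.160), followed by Hes1 at 0.47 (SE 0.215, edgeR adjusted p = 0.248). Lfng was at -0.36 (SE 0.158, edgeR adjusted p = 0.228). Of the 39 other pathway genes edgeR called 0, and 6 had an unadjusted p under 0.05. Hey1 thus had positive coefficients with the secretory and ciliated scores and a negative one with the squamous score, whereas Notch3 and Nrarp had their largest with the squamous score. The scores come from the same samples, and the difference between coefficients was not tested.

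**Figure D5:**
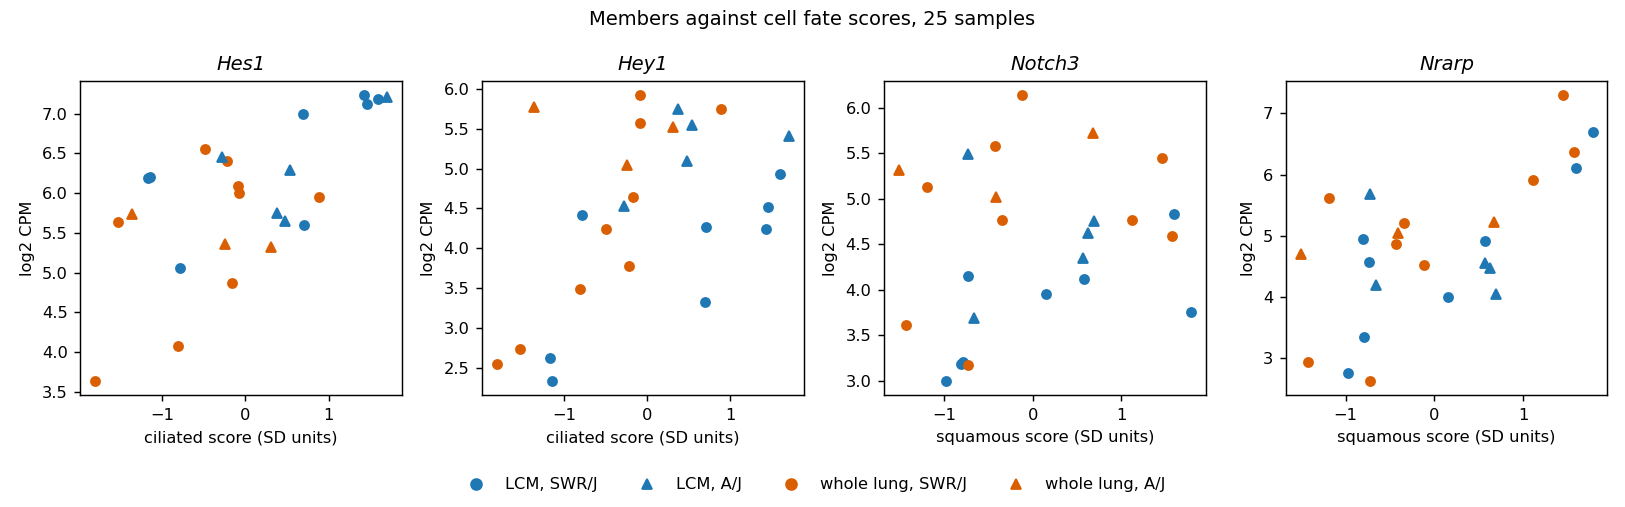
Log2 CPM (y axis) of Hes1 and Hey1 against the ciliated score and of Notch3 and Nrarp against the squamous score (x axis, SD units) in 25 samples, coloured by sample type and shaped by strain. Hes1 is at 7.12 to 7.23 in the 4 samples with a ciliated score above 1, all of them LCM samples. Nrarp is at 5.92 to 7.30 in the 5 samples with a squamous score above 1.

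Whether the high-grade difference depended on sample type or strain was tested with interaction terms in the 20 normal and high-grade samples. For sample type all 10 terms were negative, with a median of -0.88 against -0.04 over all genes. Cell type lists leaned as well. Of the ciliated list 0 of 19 terms were positive (median -1.95), of the endothelial list 1 of 12 and of the secretory list 1 of 15. Of the T cell and thymocyte list 12 of 12 were positive (median 1.38). The part of these lists in the terms of the members was not tested. The term of Hes1 was -1.56 (SE 0.586, unadjusted p = 0.0167, edgeR adjusted p = 0.844), and 1 member had an unadjusted p under 0.05. In LCM samples Hes1 averaged 6.42 ± 0.807 (SD, n = 3) in normal and 6.02 ± 0.609 (SD, n = 7) in high-grade, and in whole lung samples 4.91 ± 1.32 (SD, n = 4) and 5.87 ± 0.380 (SD, n = 6). No member and no other gene was called (0% of all genes, with 841 at an unadjusted p under 0.05).

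For strain all 10 terms were negative too, with a median of -0.89 against -0.07 over all genes. Of the endothelial list 0 of 12 terms were positive (median -0.78), of the smooth muscle and pericyte list 0 of 10 and of the basal list 0 of 7. Of the secretory list 10 of 15 were positive (median 1.89) and of the B cell list 5 of 6. Their part in the terms of the members was not tested. Notch1 had a term of -0.999 (SE 0.362, unadjusted p = 0.0134) and Hes1 of -1.36 (SE 0.609, unadjusted p = 0.0398), both with an edgeR adjusted p of 0.986. Notch1 averaged 6.11 in A/J normal, 5.70 in A/J high-grade, 5.23 in SWR/J normal and 5.77 in SWR/J high-grade samples. Again 0% of all genes were called, with 618 at an unadjusted p under 0.05, so the interactions were not detectable in these samples.

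The members were also compared with each other and with the remaining genes, after TIN, strain and sample type were regressed out of log2 CPM. Over the 25 samples the highest Pearson correlations among members were those of Jag1 with Nrarp (0.86) and Notch3 with Nrarp (0.85). The most similar other genes were Plcb3 and Mtus1 for Hes1 (r = 0.92 for each), Daam1 and Pcdh1 for Nrarp (0.94 for each), and Atp7b (0.85) and Akap2 (0.84) for Hey1. Notch3 was nearest to Efnb1 (0.93) and Casz1 (0.92), Notch2 to Casz1 (0.90) and Daam1 (0.89), and Notch1 to Zc3h7b (0.80) and Dlgap4 (0.79). Among the ligands, Jag1 was nearest to Dock9 (0.92) and Eps8l1 (0.91), Jag2 to Dcbld2 (0.90) and A730081D07Rik (0.89), a lincRNA, and Dll1 to Tbx1 (0.85) and Nfatc4 (0.83). Lfng was nearest to Nlrp1b (0.81) and Tk2 (0.79). These correlations describe 25 libraries that share RNA quality and tissue makeup, and no test was made of them.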

How the data were processed

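The deposited table holds expected counts per gene from 40 libraries. The authors prepared TruSeq libraries without strand marking, read single-end 50-nucleotide reads, and used Trimmomatic for trimming, STAR for alignment to mm9 and RSEM for counting, which divides reads that align to several genes. Reads from a gene and an antisense partner cannot be told apart. All identifiers matched an annotation of the same build (NCBIM37), which gave symbols and exon lengths.

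The 25 samples labelled as passed were used. Expected counts were rounded for edgeR 4.0.16 and DESeq2 1.42.0 (R 4.3.3). Genes needed an interquartile range above 0 and a sum above 1 on TMM log2 CPM (prior count 2), which left 15630. The robust quasi-likelihood test took strain, sample type and median TIN as covariates, and p-values were adjusted over all 15630 genes. The SE is the absolute log2 fold change divided by the square root of F, and 95% intervals use the t distribution with the test's degrees of freedom. Precision is given by the spread between samples, which includes counting error.

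All 10 members are described. Other pathway genes are given as counts and by name where called (up to 5 of the largest for grade, sample type and strain; Psenen and the genes named for TIN or a score were chosen after their values were seen), and for each member the 2 most correlated other genes were sought over the 15630 genes. The members and all gene lists were chosen with earlier results of these data known. Alternatives were DESeq2, DESeq2 size factors, no filter on low counts, no TIN covariate, LCM, whole lung or SWR/J samples alone, leaving out each sample, and leaving out 2 samples whose description and grade labels differ. Leaving out libraries rich in T cell markers and adding a T cell score were chosen after seeing the data. A result for the other pathway genes with the squamous score is not reported here. The code was tested on simulated data.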

Additional observations from a re-analysis of the deposited data

Results flagged for a closer look

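In normal replicate 5, a whole lung sample of an SWR/J mouse, Lfng stood at 6.89 log2 CPM, far above the next normal sample at 4.83, a gap that exceeded Dixon's 95% limit for 7 samples. This library also had the lowest secretory (-2.61) and ciliated (-1.81) scores of the 25, and the highest B cell marker sum, 1763 CPM; their part in the Lfng value was not tested. The members were examined in the normal and mild groups, 20 sets of values in all, and chance alone flags about 1 in 20. The association of Lfng with TIN was 0.37 per 10 units without this library.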

How the results depend on the processing

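In mild dysplasia against normal samples, where 1 member (Dll1) was called, DESeq2 called 3, and 2 were called without median TIN or within SWR/J mice. None (0) was called within LCM samples, within whole lung samples, without the libraries rich in T cell markers or with the T cell score. Leaving out single samples gave 0 to 3, with 0 without normal replicate 1 or mild dysplasia replicate 2, 3 without normal replicates 2 or 4, and Dll1 was among those called in 23 of 25. In LCM against whole lung samples, where 4 were called, 2 were called without the filter on low counts or without median TIN, 1 (Notch1) without the 2 samples whose description differs, and 0 within SWR/J mice or without the libraries rich in T cell markers. Leaving out single samples gave 2 to 4, and Notch1 was called in 25 of 25.

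For median TIN, where 2 were called, DESeq2 called 4, 1 was called with the T cell score and 0 without the libraries rich in T cell markers; single samples left out gave 0 to 4. With the ciliated score, where 2 were called, 1 was called without median TIN and 0 within LCM or whole lung samples, and single samples left out gave 1 to 2. DESeq2 called 1 member for each of high-grade against mild dysplasia (Jag1), strain (Jag2) and the secretory score (Hey1), where edgeR called none. The shares of all genes that DESeq2 called in those comparisons are not given here. Without median TIN, 3 members were called between strains and 2 with the squamous score, and the shares of all genes called in those fits are not given here. Except as stated, the cause of these differences was not tested. The fits within sample types have fewer samples. Each of the 9 called differences kept its direction in all its alternatives. For high-grade against normal and the rank of grade, each alternative called 0 members. No paired analysis was possible because the replicate numbers are in accession order and the labels pair no samples. Over all 15630 genes, calls for mild dysplasia against normal numbered 1967, against 0 within LCM samples and 3652 by DESeq2; for LCM against whole lung 2289, against 598 within SWR/J mice and 3350 by DESeq2; for the ciliated score 1819, against 230 within whole lung samples and 2814 by DESeq2; and for median TIN 1092, against 105 without the libraries rich in T cell markers and 2270 by DESeq2. The number of samples limits the precision: the 95% interval of the Notch3 difference between high-grade and normal samples ran from -0.54 to 0.93.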

Other observations

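The 15 libraries that failed quality control held 17051 to 1965373 expected counts, with a median of 287310. In them 0 to 8 of the 10 members had over 10 counts (median 4). With all 40 libraries scaled together, Hes1 had a median of 6.45 log2 CPM in the failed and 5.97 in the passed libraries, and Dll1 had 0.92 and 3.43. These libraries entered no comparison.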
